A study of Mus musculus with 4 samples.

Results

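Splenic T cells that carried RNA of Zbtb16, the gene of the transcription factor PLZF, together with at least 1 molecule of Cxcr6, Il4, Ccr2 or Rora and no Foxp3, were picked out of single-cell RNA libraries of stimulated CD4 T cells. They numbered 208 of 17969 kept T cells: 72 of 5622 in the female library labelled knockout, 89 of 6204 in the male library labelled knockout, 20 of 1702 in the female library labelled wild type and 27 of 4441 in the male library labelled wild type. A kept T cell is a barcode with at least 2000 UMIs (unique molecular identifiers, each standing for 1 captured RNA molecule), at least 500 detected genes, at most 10% mitochondrial UMIs and at least 1 UMI of Cd3d, Cd3e or Cd3g. The 4 libraries came from C57BL6/J mice, 1 female and 1 male library of each genotype, Irf5-/- and WT. In all 4, spleen cells were sorted for CD3 and CD4 protein and then cultured for 6 hours with Dynabeads carrying antibodies to CD3 and CD28. The labels give neither the age of the mice, nor how many were used per library, nor which part of Irf5 is missing, so that p-values refer to libraries and not to mice. In the tests of single genes, the spread was estimated in part from all genes together. A small p-value there does not show that the libraries lie close together for that gene.

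PLZF is the factor that sets up innate-like T cells in the thymus. These are cells with rearranged T cell receptors that leave the thymus already able to secrete cytokines within hours. The best known are the CD1d-restricted natural killer T cells (NKT cells), which recognise lipids through a nearly fixed receptor built from the Vα14 segment and Jα18, and which fall into a Tbx21-dependent interferon-γ subset, a Gata3-high interleukin-4 subset and an interleukin-17 subset. Mucosal-associated invariant T cells and some gamma-delta T cells also use PLZF. In the spleen such cells are a small minority, many carry CD4, and a sort on CD3 and CD4 therefore retains a part of them.

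The libraries held 28841161 to 55850754 UMIs. The median depth of the PLZF cells, as the Zbtb16-positive members are called here, was 4712.5, 6548, 6512 and 8621 UMIs in the female knockout, male knockout, female wild-type and male wild-type libraries, a little under the 5197, 6832, 8527 and 9713.5 UMIs of the other kept T cells, and all values given as 4 numbers follow this order. The female library labelled wild type stood apart in having 36.2% of its UMIs in droplets with fewer than 200 UMIs, against 8.62% to 14.7% in the others. Irf5 RNA went against the labels in the other kept T cells, at 8.40, 8.70, 0.735 and 0.997 CPM (a gene's UMIs relative to all UMIs of the summed cells, scaled to the same total in each sum). In the PLZF cells it was at 7.50, 8.79, 13.4 and 10.9 CPM, higher in both wild-type libraries, but on only 3, 6, 2 and 3 UMIs. Because 3′ counts outside a deleted part check nothing and the deleted part is not given, the genotypes are written below as the labels give them. Between pairs of libraries 40 cell barcodes were shared among the kept cells and 0 among the PLZF cells.

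The cells were first checked against receptor genes, which the choice of cells had not read. Trav11, the Vα14 segment of the NKT receptor, gave 3, 11, 1 and 4 UMIs in the PLZF cells, in 14 of 208 cells, and 12 UMIs in 8 of the 17761 other cells. In every library the segment was found in 4.17% to 8.99% of the PLZF cells and in 0.0164% to 0.0680% of the others, and in 0 of 62 non-T barcodes (B-lineage or erythroid, median 13136.5 UMIs), which allows a share of up to 4.84% of such barcodes. That bound is 3 of 62, an approximation and not an exact binomial limit. The fitted difference was 6.76 ± 0.961 (log2, SE; adjusted p = 8.6e-08, edgeR's quasi-likelihood test with library as a block), higher in 4 of 4 libraries. The segment exists in near copies. The mouse annotation lists Trav11 and Trav11d, and the second exon, which encodes the variable domain, is shown here because it is the stretch the copies share; the capital at the 3′ end is the 1 base annotated in Trav11 and not in Trav11d.
Trav11 exon 2: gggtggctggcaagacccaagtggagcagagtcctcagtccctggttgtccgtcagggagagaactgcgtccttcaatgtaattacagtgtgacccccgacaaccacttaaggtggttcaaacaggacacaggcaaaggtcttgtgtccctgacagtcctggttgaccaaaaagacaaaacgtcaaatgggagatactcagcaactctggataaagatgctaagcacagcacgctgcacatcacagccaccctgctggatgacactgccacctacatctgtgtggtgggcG
This exon lies on the plus strand of chromosome 14 from 53519569 to 53519859, and that of Trav11d from 52824623 to 52824912 (GENCODE M21, GRCm38). Over the 290 aligned bases the 2 exons had 0 mismatches, so that a read wholly inside them cannot be assigned to one copy. Where the reads behind the Trav11 UMIs lie is not given in the files, and the 0 UMIs listed for Trav11d say nothing about that copy.

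The other receptor genes were too sparse to place most cells. Traj18 was listed at 0 in all libraries, which in 3′ libraries limits the reads that reach a joining segment and not the cells that use it. Of the 5 Vβ segments on the NKT list (Trbv13-1, Trbv13-2, Trbv13-3, Trbv29 and Trbv1), 0 passed the test, where 12.1% of all genes tested were higher and 16.2% lower. With so few segments and UMIs this says nothing about their use. Trav1, the segment of mucosal-associated invariant T cells, had 0 UMIs in the 208 cells, which allows up to 1.44% of them to have a UMI. This bound too is approximate, at 3 of 208. Cd4, the coreceptor used for the sort, gave 8, 13, 4 and 3 UMIs, or 20.01, 19.0, 26.7 and 10.9 CPM, where the other cells had 51.2, 51.7, 46.2 and 54.9 CPM. It was lower in 4 of 4 libraries, by -1.73 ± 0.257 (log2, SE; adjusted p = 2.3e-07, edgeR). Cd8a had 0 UMIs in the PLZF cells. Trac, the constant region of the alpha chain, was lower by -0.76 ± 0.128 (adjusted p = 2.9e-06, edgeR) and was found in 60 of 72, 80 of 89, 13 of 20 and 26 of 27 cells. That is 83.3%, 89.9%, 65.0% and 96.3% of them, where it was found in 83.4%, 87.8%, 90.8% and 91.3% of the other kept T cells and in 21.0% of the 62 deeper non-T barcodes. The delta chain gene Trdc was found at 2 or more UMIs in 2, 0, 2 and 2 PLZF cells, none of which held Trav11; these 6 cells are followed separately below.

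The genes that chose the cells are given as a description, with no test. Zbtb16, on chromosome 9 from 48654297 to 48836222, gave 2.14, 3.36, 3.05 and 3.22 UMIs per PLZF cell. Cxcr6, a chemokine receptor of tissue-homing lymphocytes, gave 4.07, 6.61, 7.90 and 7.96 UMIs per cell and was found in 63, 81, 20 and 22 of them. Rora, a nuclear receptor of innate lymphocytes, gave 4.54, 6.48, 4.45 and 6.44 UMIs per cell, and Ccr2, a receptor for monocyte chemoattractants, 1.67, 2.10, 2.45 and 5.11. Just inside the threshold, 78 members had exactly 1 Zbtb16 UMI, and 130 had 2 or more. Cxcr6, which the rule reads, was found in 85.9% and 91.5% of them. Il13, which it does not read, was found in 11.5% and 23.1%, with 0.756 and 1.92 UMIs per cell. Outside the threshold stood 20 Zbtb16-positive cells without a companion gene and 7 with Foxp3. Another 1702 Zbtb16-negative cells had a companion gene and no Foxp3, with a Cxcr6 level of 140, 66.1, 53.5 and 34.6 CPM, where the members had 733, 861, 1055 and 782 CPM.

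The labels set the 2 genotypes against each other, so the number of these cells was compared first. PLZF cells made up 1.28% (95% exact binomial interval 1.00% to 1.61%), 1.43% (1.15% to 1.76%), 1.18% (0.719% to 1.81%) and 0.608% (0.401% to 0.883%) of the kept T cells. The 2 knockout libraries averaged 1.36% ± 0.109 (SD, n = 2) and the 2 wild-type libraries 0.892% ± 0.401 (SD, n = 2). The difference of 0.466 percentage points gave p = 0.33 in a two-sided exact permutation test, the smallest that 2 libraries against 2 allow. Both knockout values lay above both wild-type values, but the female wild-type interval covers both. When every cell was first thinned to 2000 UMIs, so that depth was equal, the shares were 0.747%, 0.790%, 0.529% and 0.338%. With at least 2 Zbtb16 UMIs required they were 0.640%, 1.02%, 0.705% and 0.428%, so that the female knockout value lay below the female wild-type one (two-sided exact permutation p = 0.67). Intervals cover counting error only, and a change in the number of these cells cannot be told apart from a change in how often Zbtb16 was captured.

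**Figure D1:**
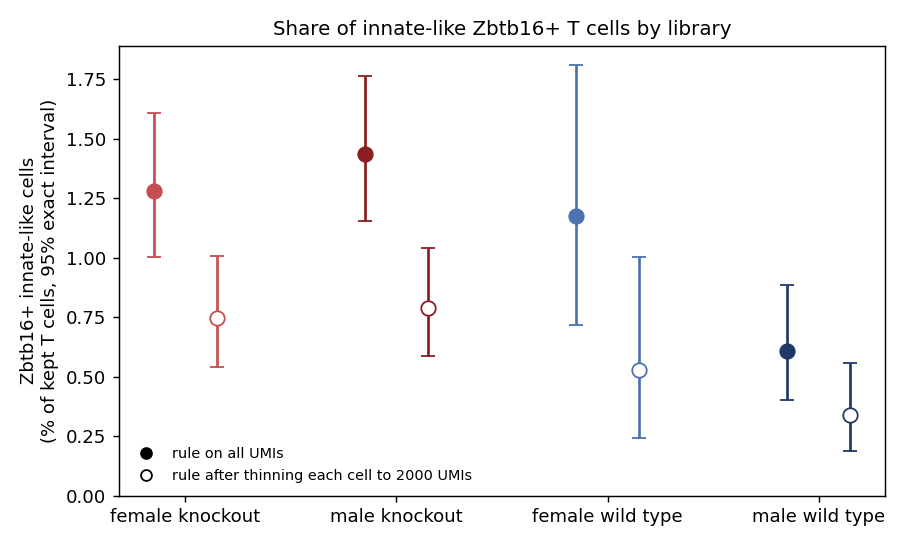
Share of kept T cells that met the rule in each library (y axis, percent; bars are 95% exact binomial intervals), on all UMIs (filled) and after thinning each cell to 2000 UMIs (open). The male wild-type library is lowest at 0.608%, and its interval overlaps that of the female wild-type library (0.719% to 1.81%), which overlaps both knockout intervals.

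The PLZF cells were then compared with all other kept T cells of the same library, on counts summed per library. Of 11020 genes tested, leaving out the 9 genes the rule reads and the given markers Xcl1 and Csf2, 28.3% differed, 12.1% being higher and 16.2% lower in the PLZF cells, at an adjusted p under 0.05 (edgeR's quasi-likelihood test with library as a block and Benjamini-Hochberg adjustment). The cells were chosen by genes measured in these same cells, so these tests describe the chosen cells and are no independent evidence that they are one type. The median log2 difference over all genes tested was -0.12, and with another scaling (RLE) -0.02, which moved the share of higher genes among those called from 42.9% to 51.9% and with DESeq2's Wald test to 56.8%.

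Of the type 2 cytokine genes, 3 of 7 were tested, 2 were called higher (Il13 and Il10) and 1 lower (Areg), where 12.1% of all genes were higher and 16.2% lower. The Il10 call rested on 65 UMIs in 1 cell of the male knockout library, with 0 in the other 3 libraries, and that of Areg on 3 UMIs in the PLZF cells. Neither passed with DESeq2 (adjusted p = 0.77 and 0.12). Il13, whose product drives mucus and eosinophil responses, gave 72, 194, 4 and 38 UMIs in the PLZF cells and was found in 15, 18, 2 and 4 of them, or 18.8% of all, against 0.197% of the other cells and 0 of the 62 non-T barcodes. In CPM this was 180, 284, 26.7 and 138 against 1.64, 1.00, 0.401 and 0.975. The female wild-type library was lowest and the others lay well above it, and in every library the PLZF cells exceeded the other cells. The fitted difference was 7.05 ± 0.261 (log2, SE; adjusted p = 9.7e-30, edgeR). The PLZF cells held 58.5%, 81.2%, 40.0% and 46.3% of the Il13 UMIs of their library, a mean of 56.5% ± 18.2 (SD, n = 4). Single values moved with the choice of cells: to 28.5% and 38.9% in the knockout libraries after thinning, below both wild-type ones (40.0% and 42.7%), to 37.4% in the female knockout library with at least 2 Zbtb16 UMIs, to 25.5% in the male wild-type library with doublets removed, and to 14.3% in the female wild-type library without cells with other-lineage markers. Il13 lies on chromosome 11 from 53631324 to 53634702, next to Il4, at 53602982 to 53618669 (GRCm38).

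Il4, the growth factor of type 2 helper cells and of IgE switching, was read by the rule and is described without a test against other cells; 1 of the 208 cells met the rule through Il4 alone. The PLZF cells held 319, 503, 29 and 69 Il4 UMIs, which was 78.0%, 81.4%, 65.9% and 47.6% of the Il4 UMIs of their libraries. Csf2 and Xcl1, a myeloid growth factor and a chemokine for dendritic cells, belong to the given markers and are described only. Csf2 gave 110, 177, 101 and 33 UMIs, of which 94 of the 101 in the female wild-type library came from 1 cell. Xcl1 gave 134, 172, 65 and 69 UMIs, in 33, 36, 7 and 13 cells.

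**Figure D2:**
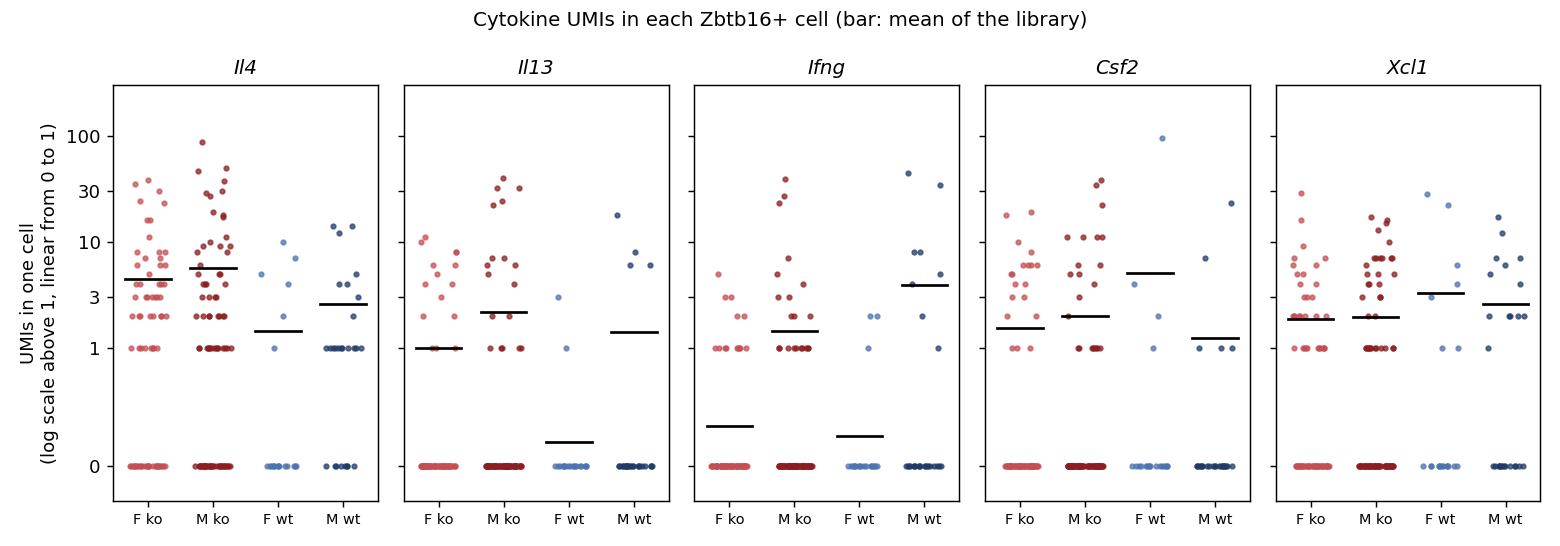
UMIs of 5 cytokine genes in each PLZF cell (y axis, log scale above 1 and linear from 0 to 1), by library (F, female; M, male; ko, labelled knockout; wt, labelled wild type); 1 point is 1 cell and the bar is the library's mean. Most cells lie at 0 for Il13 and Ifng, and single cells reach 87 UMIs of Il4, 40 of Il13, 44 of Ifng and 94 of Csf2.

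Of 10 type 1 and cytotoxic genes 9 were tested, 6 were higher and 1 was lower, against 12.1% and 16.2% of all genes. Ifng, the macrophage-activating interferon, gave 24, 127, 5 and 106 UMIs in 14, 21, 3 and 8 cells, 4.68 ± 0.385 above the other cells (log2, SE; adjusted p = 7.1e-15, edgeR). It was higher in 4 of 4 libraries, but its level ranged from 33.4 CPM in the female wild-type library to 386 CPM in the male one, where 1 cell held 44 of the 106 UMIs. Fasl, a death ligand, was even across libraries, at 195, 185, 200.4 and 178 CPM against 22.4 to 34.5 CPM, a difference of 2.56 (adjusted p = 1.8e-20, edgeR). The protease gene Gzmb was 5.44 higher (adjusted p = 2.2e-22, edgeR), but its 37, 107, 9 and 52 UMIs came from 5, 9, 1 and 2 cells. Lta, which encodes lymphotoxin α, was 1.26 higher (adjusted p = 2.7e-08, edgeR), but did not pass after thinning (0.50, adjusted p = 0.14). Tnf did not pass, at 77.6, 96.7, 93.5 and 47.3 CPM against 71.8 to 114 CPM (log2 difference -0.43, adjusted p = 0.074, edgeR), though it did, as lower, without the male knockout library (-0.66), without cells with other-lineage markers (-0.47) and without the Trdc cells (-0.43). Il2, the T cell growth factor that conventional CD4 cells make after stimulation, gave 2, 42, 0 and 0 UMIs in the PLZF cells and stood at 100.3 to 119 CPM in the others. It was lower by -2.33 ± 0.296 (adjusted p = 5.1e-09, edgeR), and 34 of the 42 UMIs in the male knockout library were in 1 cell. The size of this difference was not stable: it was -5.74 without that library, -4.80 with DESeq2 and -3.49 after thinning.

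**Figure D3:**
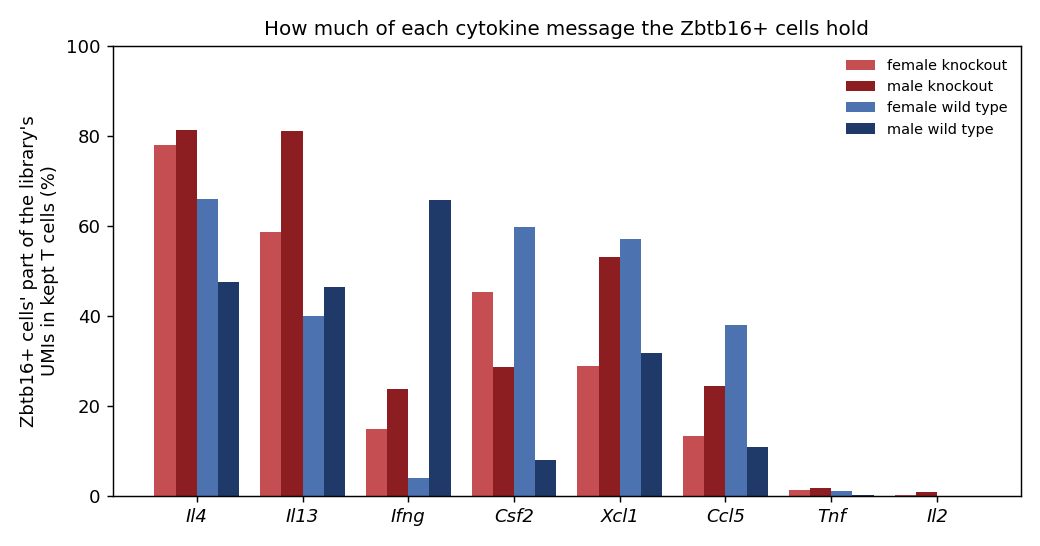
Part of each library's UMIs in kept T cells that lay in PLZF cells (y axis, percent, from 0 to 100), for 8 cytokine and chemokine genes; bars are the 4 libraries. Il4 and Il13 bars reach 40.0% to 81.4%, and Tnf and Il2 bars stay at or under 1.69%.

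Of the chemokine genes, 3 of the 5 tested were higher and 1 was lower, against 12.1% and 16.2% of all genes. Ccl5, which attracts T cells and is stored by memory and cytotoxic cells, was found in 45, 62, 10 and 17 cells, at 445, 406, 1129 and 346 CPM against 17.3 to 37.1 CPM (log2 difference 4.25 ± 0.184, adjusted p = 1.4e-26, edgeR). It was also found in 21.0% of the 62 non-T barcodes, against 64.4% of the PLZF cells. Ccl4, a chemokine of activated lymphocytes, was called higher (1.85, adjusted p = 2.7e-05, edgeR) but gave 18, 368, 0 and 164 UMIs, of which 1 cell held 272 in the male knockout and 1 cell 156 in the male wild-type library. It was below the other cells in both female libraries and did not pass with DESeq2, and the value was 0.73 without the male knockout library. Ccl3 was 4.5 higher (adjusted p = 8.3e-12, edgeR) on only 10 cells in all, and 3.16 without the male knockout library. Cxcl10, an interferon-induced chemokine, was lower in 4 of 4 libraries, by -2.12 ± 0.232 (adjusted p = 8.9e-11, edgeR). Type 3 cytokine genes rested on very few cells. Il17a gave 77, 9, 0 and 0 UMIs from 3, 1, 0 and 0 cells, and 34 of the 37 Il22 UMIs came from 1 cell of the female knockout library. Il5 and Il9 had 0 UMIs in the PLZF cells.

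Detection of the cytokines overlapped within cells. Il4 was found in 122 of the 208 cells and Il13 in 39, and 30 cells held both, so that Il13 was found in 24.6% of the Il4-positive and 10.5% of the Il4-negative cells. Il4 and Ifng shared 31 cells, with Ifng found in 25.4% of the Il4-positive cells and 17.4% of the Il4-negative ones, but in the female knockout library in 17.8% and 22.2%. Csf2 was found in 33.6% and 10.5% of these groups over all libraries. It was found in 40% and 3.70% in the female knockout and 36.5% and 8.11% in the male knockout library, but in 16.7% and 21.4% in the female wild-type and 15.8% and 25% in the male wild-type library, which had 4 and 5 Csf2-positive cells. Of the 4 cells with Il17a, 1 held Il4 and 0 held Ifng. Counting Il4, Il13, Ifng, Csf2, Xcl1, Il17a and Il2 together, 39 of 208 cells had none, 59 had 1, 55 had 2 and 55 had 3 or more. The part of depth in these overlaps was not tested. Among the 14 Trav11-positive cells, 11 held Il4, or 78.6%, against 57.2% of the Trav11-negative PLZF cells. In the female wild-type library it was 0 of 1.

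The transcription factors of the subsets were next compared. Of 20 lineage factors, 18 were tested, 8 were higher and 7 were lower in the PLZF cells, against 12.1% and 16.2% of all genes. Gata3, the type 2 factor, was at 135, 152, 134 and 83.7 CPM against 74.0, 58.8, 53.9 and 27.99, higher in 4 of 4 libraries by 0.99 ± 0.158 (log2, SE; adjusted p = 1.1e-06, edgeR). Tbx21, the type 1 factor, was at 20.01, 7.32, 26.7 and 18.2 CPM against 27.8, 27.2, 34.5 and 17.7. It was lower by -1.04 ± 0.321 (adjusted p = 0.01, edgeR), though not in the male wild-type library, and did not pass with DESeq2, without the male knockout library (log2 difference -0.58), after thinning, without the library block, or with the other cells matched on depth. Gata3 was found in 86 of the 208 cells and Tbx21 in 17, and 9 cells held both.

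Id2, an inhibitor of E proteins that innate lymphocytes need, differed from the other cells by nearly the same amount in each library. It stood at 610, 479, 534 and 473 CPM against 37.7, 30.8, 35.2 and 32.4 CPM, a difference of 3.67 ± 0.131 (log2, SE; adjusted p = 1.6e-30, edgeR). Its relative Id3 was lower by -1.17 (adjusted p = 0.0012, edgeR) with 1, 32, 0 and 8 UMIs, and this did not pass with DESeq2 (-2.09) or without the library block. It ranged from -2.42 to -0.77 over the alternatives. Maf was 3.64 higher, Nfil3 2.51, Ikzf2 (Helios) 1.94, Runx3 1.26 and Bhlhe40 1.21 on the log2 scale, each higher in 4 of 4 libraries and each with an adjusted p of 2.1e-07 or below (edgeR), though Runx3 did not pass after thinning (0.76). Irf4 and Bcl6, factors of activated and follicular helper cells, were lower in 4 of 4 libraries, by -1.76 and -2.60 (adjusted p = 8.3e-17 and 1.9e-08, edgeR).

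**Figure D4:**
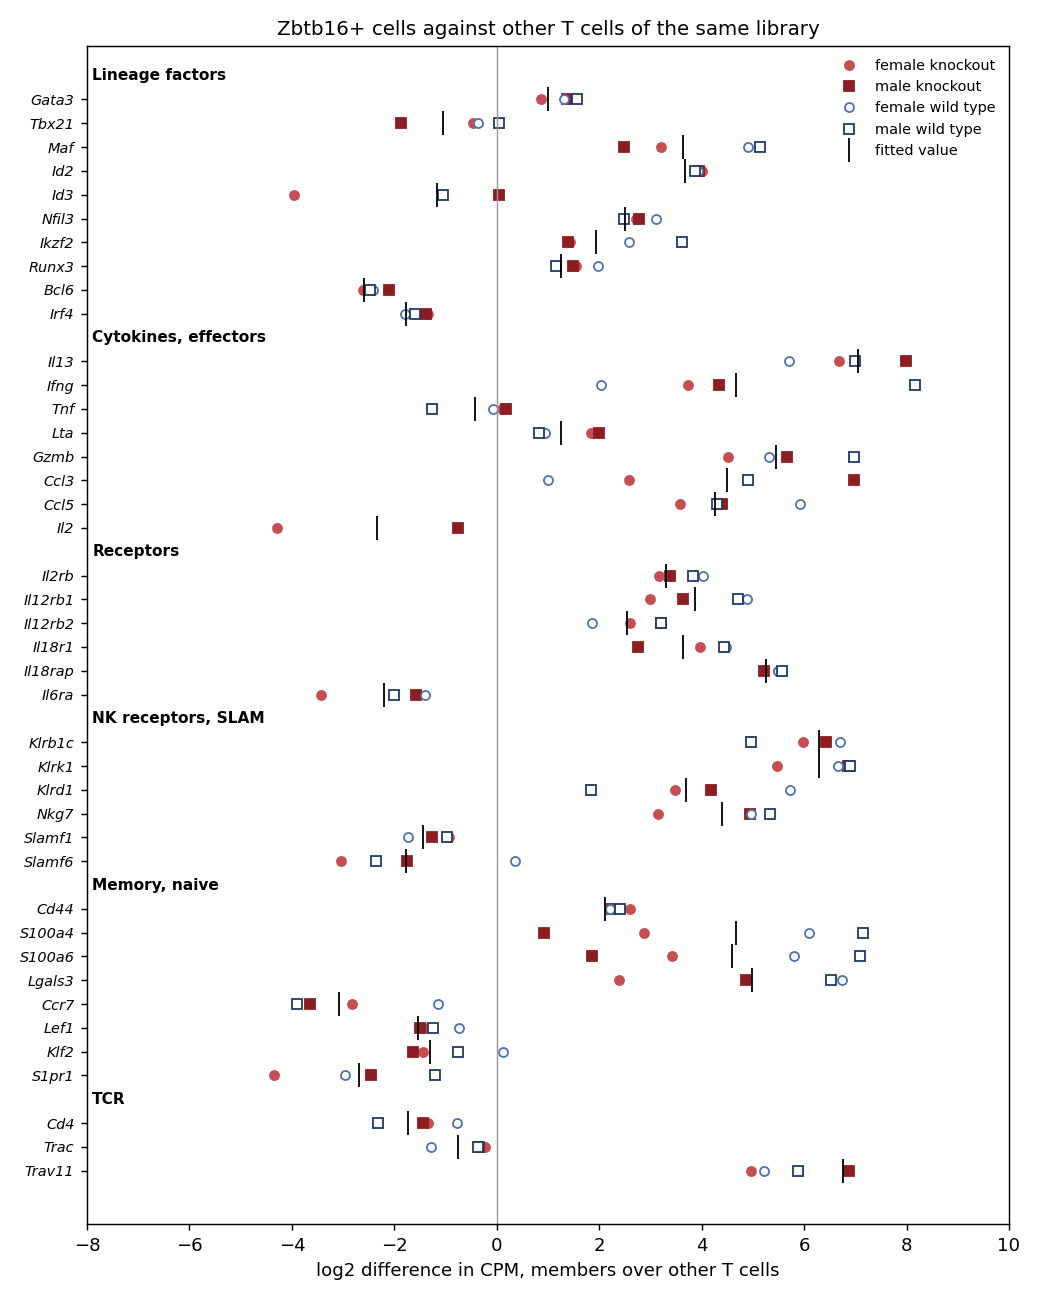
Log2 difference in CPM between PLZF cells and the other kept T cells of the same library (x axis), for 41 genes in 6 groups; circles are female and squares male libraries, filled ones labelled knockout and open ones wild type, and the vertical mark is the fitted value. The library points are scaled by total UMIs alone and the fitted value by the fit's own factors, so that it can lie outside its points. Libraries in which the PLZF cells held 0 UMIs of a gene are not drawn; Id2 lies between 3.86 and 4.01 in all 4 libraries, while S100a4 spreads from 0.92 to 7.15.

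Of 16 cytokine receptor genes tested, 10 were higher, 1 was lower and 5 did not pass, where 12.1% of all genes were higher and 16.2% lower, and the list's median difference was 0.92 against -0.12 over all genes. Il2rb, the beta chain shared by the interleukin-2 and interleukin-15 receptors, was found in 61 of 72, 79 of 89, 18 of 20 and 24 of 27 cells, at 390, 373, 521 and 389 CPM against 27.3 to 43.1 CPM (log2 difference 3.30 ± 0.138, adjusted p = 3.1e-27, edgeR). Both chains of the interleukin-18 receptor were higher, Il18r1 by 3.63 and Il18rap by 5.25, and both chains of the interleukin-12 receptor, Il12rb1 by 3.86 and Il12rb2 by 2.55, all in 4 of 4 libraries (adjusted p of 8.7e-08 or below, edgeR). Ifngr1 was 1.97 higher and Il2ra 0.86 higher. Il17rb, a receptor for interleukin-25 that marks one NKT subset, gave 0, 2, 0 and 1 UMIs. Il6ra was lower by -2.20 (adjusted p = 1.7e-06, edgeR).

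On the list of these receptors and the SLAM family, 17 of 21 genes were tested, 11 were higher and 2 were lower, against 12.1% and 16.2% of all genes, with a median of 3.03 against -0.12. Klrk1, which encodes NKG2D, gave 47, 53, 25 and 41 UMIs in 19, 17, 10 and 11 cells, 6.29 ± 0.336 above the others (log2, SE; adjusted p = 2.2e-22, edgeR). Klrc1 was 6.16 and Klrd1 3.69 higher, which encode the 2 chains of the NKG2A receptor, and Klrb1c, which encodes NK1.1, was 6.29 higher (adjusted p = 1.5e-09, edgeR) with only 11, 12, 7 and 4 UMIs. Nkg7 and Ctsw, of cytotoxic granules, were 4.39 and 3.85 higher. Slamf1 and Slamf6, whose products select NKT cells in the thymus, were lower, by -1.44 and -1.77 (adjusted p = 4.3e-10 and 5.4e-07, edgeR), Slamf1 in 4 of 4 libraries and Slamf6 in all but the female wild-type library. The value of Slamf6 was -4.31 after thinning. Markers of natural killer cells themselves moved with these genes: 4 of 8 were detected, their summed level was 12.5, 17.6, 53.4 and 185 CPM against 3.78 to 8.40 CPM in other cells, 50 Gzma UMIs of the male wild-type library were in 1 cell, Ncr1 and 3 Klra genes were at 0, and their part in the result was not tested.

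Of 11 chemokine receptor and homing genes tested, 4 were higher and 4 were lower, against 12.1% and 16.2% of all genes. Lymph node and exit receptors were lower in 4 of 4 libraries: Ccr7 by -3.08 ± 0.212 and S1pr1 by -2.70 ± 0.308 (adjusted p = 7.4e-18 and 3.2e-10, edgeR). Of 16 genes of naive and resting cells, 10 were lower and 3 were higher. Lef1 was lower by -1.55, Bach2 by -1.55, Klf2 by -1.30 and Actn1 by -3.29. Klf2 was not lower in the female wild-type library, at 207 CPM against 191 CPM. Btg1, an antiproliferative gene of the same list, was 0.73 higher (adjusted p = 3.2e-07, edgeR).

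Of 20 genes of memory and adhesion, 19 were tested, 15 were higher and 0 were lower, where 12.1% of all genes were higher and 16.2% lower. Cd44 was at 258, 148, 227 and 138 CPM against 26.0 to 49.2 CPM, a difference of 2.11 ± 0.147 (log2, SE; adjusted p = 1.1e-17, edgeR), and was found in 38, 45, 12 and 13 cells. S100a4, S100a6 and Lgals3 had larger fitted differences, 4.68, 4.59 and 4.98, but came from few cells, 3, 1, 5 and 3 for S100a4, and those of S100a4 and S100a6 were 2.79 and 2.70 with at least 2 Zbtb16 UMIs. The 6 cells with 2 or more Trdc UMIs held 75.0% of the 160 S100a4 UMIs of the PLZF cells and 73.2% of the 239 S100a6 UMIs.

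Of 15 costimulatory and TNF family genes tested, 5 were higher and 7 were lower, against 12.1% and 16.2% of all genes. Icos was at 968, 828, 1049 and 564 CPM against 199 to 296 CPM, 1.41 ± 0.117 higher (log2, SE; adjusted p = 9.2e-15, edgeR). Tnfrsf9 (4-1BB), Tnfrsf18 (GITR) and Tnfsf14 (LIGHT) were 1.20, 1.14 and 3.69 higher. Tnfrsf4 (OX40) was at 30.02, 58.6, 60.1 and 131 CPM against 296 to 467 CPM, lower by -2.86 ± 0.199 (adjusted p = 1.1e-17, edgeR), and Tnfsf8, Tnfsf11 and Ctla4 were lower by -3.18, -2.16 and -2.03. Each of these 4 was lower in 4 of 4 libraries. After thinning Tnfrsf4 was at -1.53, and Ctla4 did not pass (-0.87, adjusted p = 0.11).

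Of 26 tested genes that T cells switch on within hours of receptor stimulation, 9 were higher and 14 were lower, against 12.1% and 16.2% of all genes. Tnfaip3, Nfkbia and Junb, of the NF-κB feedback and AP-1 families, were higher in 4 of 4 libraries, by 2.08 ± 0.130, 1.18 ± 0.110 and 1.18 ± 0.124 (adjusted p = 1.5e-19, 5.5e-13 and 2.3e-11, edgeR). Nr4a1, Cd69 and Myc were lower in 4 of 4 libraries, by -0.91, -1.07 and -1.29 (adjusted p = 2.8e-08, 3.9e-10 and 1.3e-09, edgeR). Spry1, a brake on MAP kinase signalling, was lower by -3.28 ± 0.242. Egr1 was lower by -1.15 overall (adjusted p = 0.00014, edgeR) but not in the female knockout library, and did not pass with DESeq2 or without the library block. Of 15 interferon-response genes tested, 11 were lower and 1 was higher, against the same shares of all genes: Gbp2 was at 240, 126, 267 and 378 CPM against 583 to 864 CPM, -1.95 ± 0.154 (adjusted p = 1.6e-15, edgeR), while Isg15 was 0.78 higher (adjusted p = 0.00028, edgeR), in 4 of 4 libraries, and did not pass without the male knockout library (0.40) or without the library block.

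By size of difference among genes with at least 20 CPM on average and the same direction in 4 of 4 libraries, the 10 leading genes after those the rule read were Krt83 (7.70), Trpm6 (7.06), Il13, Trf (7.0), Gcnt2 (6.87), Calca (6.73), Ltb4r1 (6.53), Cysltr1 (6.36), Klrk1 and Cd163l1 (6.28 on the log2 scale). Trf, which encodes the iron carrier transferrin, gave 76, 166, 57 and 86 UMIs in 27, 45, 10 and 17 cells, more cells than Il13 or Krt83. Krt83, a hair keratin, gave 26, 73, 11 and 21 UMIs in 13, 21, 6 and 9 cells, or 65.0, 107, 73.5 and 76.4 CPM against 0.0443 to 0.579 CPM. Calca, which encodes the peptide CGRP, gave 62, 105, 19 and 17 UMIs in 43 cells in all, at 155, 154, 127 and 61.8 CPM against 0.200 to 2.45. The leukotriene receptors Ltb4r1 and Cysltr1 were found in 10 and 21 cells, and 64.1% of the 39 Ltb4r1 UMIs lay in the 6 cells with Trdc. Cd163l1, a gene of gamma-delta cells, came from 5 cells, and 89.5% of its 57 UMIs lay in the cells with Trdc. The 5 leading lower genes were Iglc1 (-6.53), Itm2a (-4.63), Actn1, Spry1 and Tnfsf8. Iglc1 is a B cell light chain that reached 199 CPM in the other cells of the female knockout library alone, and its difference turned to 0.06 when cells with other-lineage markers were left out and to 1.35 with DESeq2. Itm2a, a membrane protein induced in activated T cells, was at 22.5, 2.93, 26.7 and 10.9 CPM against 205 to 268 CPM.

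The PLZF cells were also set beside cells that met the companion condition alone. Against the 1702 Zbtb16-negative cells that had Cxcr6, Il4, Ccr2 or Rora and no Foxp3, a comparison added after the data were seen, 24.4% of genes differed, and the PLZF cells had 11.6% of 8667 genes higher and 12.8% lower (adjusted p under 0.05, edgeR). Il13 was 4.67 higher (adjusted p = 5.2e-08), Trf 4.67 (1.4e-08), Klrk1 3.69 (8.7e-08), Il2rb 2.61 (5.2e-08) and Id2 2.52 (5.7e-10). Trav11 was 4.42 higher (adjusted p = 0.0012). Tbx21 (adjusted p = 0.14) and Tnf (0.29) did not pass here. These adjusted p are all from edgeR's quasi-likelihood test, and the cells on both sides were again chosen by measured genes.

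Some of the PLZF cells carried gamma-delta receptor genes. The 6 cells with 2 or more Trdc UMIs were 2 of 72, 0 of 89, 2 of 20 and 2 of 27 in the 4 libraries, and Trdc reached 10, 0, 20 and 39 UMIs. Tcrg-C1, a gamma chain constant gene, gave 60 UMIs, of which 88.3% lay in these cells. Trgv2, a gamma chain variable segment, was found in 5, 5, 5 and 4 PLZF cells, and 27.3% of its 44 UMIs lay in the 6 cells. Leaving out the 6 cells thus does not leave out every PLZF cell with gamma chain RNA. The 6 cells held 0 of the 920 Il4 UMIs, 0 of the 262 Ifng UMIs and 1 of the 308 Il13 UMIs. They held 39.8% of the 216 Maf UMIs and 57.9% of the 140 Vim UMIs. Markers of other cell types were counted as well. Of mast cell and basophil markers 3 of 8 were detected, at 2.50, 13.2, 0 and 65.5 CPM summed against 2.93 to 5.21 CPM, with Mcpt8 and Fcer1a at 0; the 17 Cpa3 UMIs of the male wild-type library were in 1 cell. Of B cell markers 3 of 8 were detected, at 47.5, 38.1, 40.1 and 189 CPM against 206, 38.7, 40.3 and 46.0 CPM, with Cd79a, Ebf1, Ms4a1 and Pax5 at 0. The sum was thus above the other cells in the male wild-type library, where Cd74 gave 39 UMIs in 6 cells, and below them in the female knockout library. Of myeloid markers 3 of 8 were detected, at 45.0, 46.9, 86.8 and 72.7 CPM against 59.6, 37.2, 31.5 and 41.5 CPM, with Csf1r, Lyz2 and Itgam at 0. Type 2 innate lymphoid markers were detected for 6 of 8 genes and summed to 65.5 to 171 CPM against 6.94 to 13 CPM in other cells. Calca, at 61.8 to 155 CPM, carried nearly all of that sum, while Areg was at 0, 4.39, 0 and 0 CPM against 4.01 to 8.70 CPM, Klrg1 was at 0 and Il1rl1 had 1 UMI. Of erythroid markers 7 of 9 were detected, at 12.5, 161, 40.1 and 7.27 CPM against 13, 9.06, 129 and 8.27 CPM, with Alas2 at 0; in the male knockout library all 60 Car1 UMIs came from 1 cell, and 38 of the 39 Car2 UMIs from 1 cell. Regulatory T cell markers summed to 823 to 989 CPM against 389 to 482 CPM, of which Il2ra made up 680 to 782 CPM, and Foxp3 was at 0 by the rule. The part of these markers in the results was not tested.

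Within the PLZF cells, the libraries labelled knockout were compared with those labelled wild type, with sex as a covariate. With one library left out, the sex term was left out too, since 3 libraries leave no degree of freedom for it. Of 4677 genes tested, 1.5% differed at an adjusted p under 0.05 (edgeR), 0.214% being higher and 1.28% lower in the knockout libraries, which is 10 and 60 genes. DESeq2's Wald test on the same sums called 1, Vim. Leaving out the 6 cells with Trdc left 12 calls, all of them among the 70, of which 1 (Iigp1) had turned its direction, and without the sex term there were 21.

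The 2 genes with the largest differences were neighbours on chromosome 1, Sp110 (85576899 to 85598817) and Sp140 (85600378 to 85645037, GRCm38), nuclear body proteins induced by interferons. Sp110 gave 0, 0, 11 and 36 UMIs in the PLZF cells, and Sp140 0, 0, 11 and 11. Neither was detected in the PLZF cells of the 2 knockout libraries, and both were in those of the wild-type ones. In the other kept T cells they were low in the knockout libraries, with 0.386, 0.512, 102 and 84.1 CPM of Sp110 and 0.547, 0.401, 31.2 and 25.3 CPM of Sp140. Against a floor of 3 counts per library, Sp110 was at least 17.2-fold lower and Sp140 at least 9.54-fold lower in the knockout libraries. The adjusted p were 3.8e-16 and 3.5e-09 (edgeR), and neither passed with DESeq2. Sp140 lost its call without either knockout library. The interaction did not call them (adjusted p = 0.87 and 0.85, edgeR), so that a difference particular to PLZF cells was not shown.

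Il4 was higher in both knockout libraries, at 798, 737, 194 and 251 CPM, or 4.43, 5.65, 1.45 and 2.56 UMIs per cell. With Il4 left out of the rule, the difference between the genotypes was 1.74 ± 0.223 (log2, SE; adjusted p = 5.4e-12, edgeR). The share of PLZF cells with an Il4 UMI, 62.5%, 58.4%, 30% and 70.4%, did not follow this order. A genotype difference in Il4 beyond that in the other cells was not detected (0.90 ± 0.289, adjusted p = 0.13, edgeR). Il13 was also higher, by 1.42 ± 0.280 (adjusted p = 8e-05, edgeR), with 180 and 284 CPM in the knockout and 26.7 and 138 CPM in the wild-type libraries. This call was lost without the male knockout or without the female wild-type library (0.94 and 0.82), without the Trdc cells (1.19), without the sex term (1.30), after thinning (0.36) and with DESeq2. Of the 38 Il13 UMIs of the male wild-type library, 47.4% came from 1 cell. Ifng did not pass (-0.71, adjusted p = 0.23, edgeR), and its sign turned to 1.91 without the male wild-type library.

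**Figure D5:**
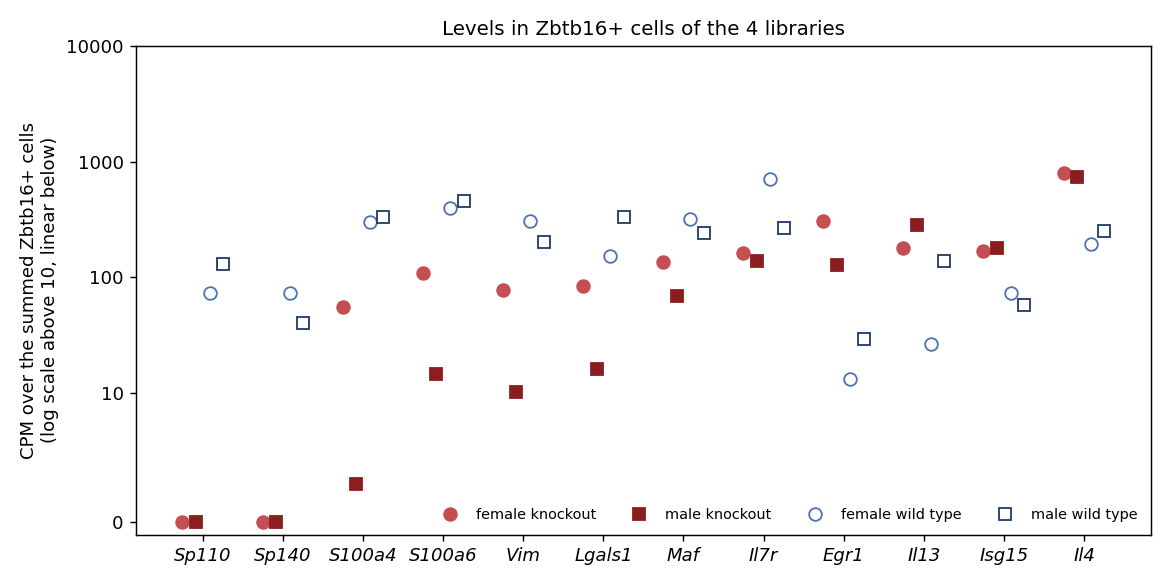
Level of 12 genes in the summed PLZF cells of each library (y axis, CPM, log scale above 10 and linear below); circles are female and squares male libraries, filled ones labelled knockout and open ones wild type. Sp110 and Sp140 are at 0 in both knockout libraries, and S100a4 to Il7r are lower and Egr1 to Il4 higher in both knockout libraries than in both wild-type ones.

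Genes of memory and adhesion were among the lower ones. Of 16 tested genes of memory and adhesion 10 were lower and 0 were higher in the knockout libraries, where 1.28% of all genes were lower. Without the Trdc cells 5 of these 10 were still called (S100a4, S100a6, Vim, Lgals1 and Lgals3), while S100a10, S100a11, Ahnak and Crip1 were not, their values moving from -1.42, -1.19, -1.88 and -1.80 to -0.86, -0.74, -1.37 and -0.79, and Anxa2 had too few UMIs left to be tested. S100a4 was at 55.0, 2.93, 301 and 331 CPM, and S100a6 at 110, 14.7, 401 and 455 CPM; they were lower by -3.85 ± 0.317 and -3.15 ± 0.257 (log2, SE; adjusted p = 3.8e-30 and 2.5e-30, edgeR). Vim, an intermediate filament, was lower by -2.88 ± 0.313 (adjusted p = 8e-17, edgeR) and Lgals1, a galectin, by -2.60 ± 0.302 (adjusted p = 1.1e-14, edgeR). These levels rested on few cells: Vim was found in 7, 3, 5 and 2 cells, and the 5 highest cells held 93.5% to 100% of its UMIs in each library. Without the Trdc cells, the values of S100a4, S100a6, Vim, Lgals1 and Lgals3 were -3.73, -3.01, -3.01, -2.13 and -2.41. Single libraries moved their sizes, S100a4 to -6.60 without the female and -2.54 without the male knockout library, S100a6 to -4.84 and -1.98, Vim to -4.56 and -1.70, and Lgals1 to -3.93 and -1.58. Anxa2, Trdc, Tmem176a, Cd163l1, Atxn1, Ltb4r1, Anxa5 and Trgv2 complete the 15 largest differences with Egr1, and of these, only Egr1 was higher in the knockout libraries. Without the Trdc cells Egr1 was still called, and the other 8 had too few UMIs left to be tested. The transcription factor gene Maf (-1.57) and the interleukin-7 receptor gene Il7r (-1.58) were lower too, at 135, 68.8, 321 and 244 CPM and 163, 138, 715 and 269 CPM (adjusted p = 1.3e-07 and 2.6e-10, edgeR). Without the Trdc cells Maf lost its call (-1.08) and Il7r kept it (-1.63). Maf also lost it without the male knockout (-1.06) or the female wild-type library (-1.28), Il7r without the female wild-type library (-0.81), and Lgals1 without the male wild-type library (-1.85).

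Egr1, an immediate early factor of receptor signalling, was higher in the knockout libraries. It gave 123, 87, 2 and 8 UMIs, or 308, 127, 13.4 and 29.1 CPM, in 18, 26, 2 and 4 PLZF cells. The difference was 2.97 ± 0.388 (log2, SE; adjusted p = 1.4e-11, edgeR), and neither knockout library overlapped a wild-type one. The call was lost after thinning (1.65) and with DESeq2 (adjusted p = 0.12). In the other kept T cells the order was not the same, with 201, 235, 275 and 219 CPM, and the interaction gave 3.37 ± 0.367 (adjusted p = 2.2e-16, edgeR). Of the 26 genes on the early list it was the only one called among the 23 tested. Of 8 interferon-response genes tested between genotypes, 2 were lower in the knockout libraries, Zbp1 by -1.35 and Gbp2 by -0.97 (adjusted p = 0.0072 and 0.002, edgeR), and 1 was higher, where 1.28% of all genes were lower and 0.214% higher, and none of the 3 was called without the Trdc cells, where Zbp1 was at -0.78 and Gbp2 at -0.44. The higher one, Isg15, differed by 1.43 (adjusted p = 0.0012, edgeR), at 168, 180, 73.5 and 58.2 CPM, and lost its call without the male knockout or the male wild-type library (1.36 and 1.19), without the Trdc cells (1.32), after thinning (1.02) and with DESeq2.

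The difference between genotypes was itself compared between PLZF cells and the other kept T cells. This interaction called 110 of 11020 genes or 0.998%, with 0.254% higher and 0.744% lower in the knockout PLZF cells than the other cells would give (edgeR). Vim (-3.50), S100a6 (-3.52), S100a4 (-4.16), Lgals1 (-2.73), Maf (-2.06) and Anxa2 (-5.13) were lower with adjusted p from 4.2e-17 to 0.00012, but these genes, like Egr1, were named for their genotype difference within PLZF cells, which is one side of the same interaction. Anxa2 was not called without the Trdc cells (-3.78, adjusted p = 0.26, edgeR). The count depended on single libraries, from 31 without either knockout library to 308 without the female wild-type library. So did the balance of directions: 28 genes were higher and 82 lower with all libraries, but 179 higher and 129 lower without the female wild-type library, and 58 and 49 without the male one. Without the Trdc cells the count was 43, and with DESeq2 it was 21.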

How the data were processed

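Per the labels' protocols, libraries were made with 10x Genomics 3′ v3.1 chemistry. Cell Ranger 6.0.2 and the build mm10 are named in the submitters' processing notes, while the file headers name Cell Ranger 4. The authors deposited raw UMI counts per gene and barcode for 32285 genes, without normalization or cell calling, so cells were called here by fixed minima. Members, gene lists and tests were chosen with earlier results of these data known. Genes named beyond the lists were the 10 highest and 5 lowest called differences with at least 20 CPM and 1 direction in 4 libraries, and the 15 largest genotype differences; a few others (Iigp1, Il10 and Il22) were named after their values were seen.

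Counts were summed per library over PLZF cells and over all other cells and tested in edgeR 4.0.16 (R 4.3.3) with filterByExpr, TMM factors and quasi-likelihood tests, with library as a block, or with sex and genotype within PLZF cells. Calls required a Benjamini-Hochberg adjusted p below 0.05. Standard errors were taken as the log2 difference divided by the square root of F. DESeq2 1.42.0 was an alternative. Within-library differences come from 1 library each and have no test. They use CPM on total UMIs without TMM factors, unlike the fitted differences. Doublets were not removed in the reported values; scrublet in scanpy 1.11.5, at a removal rate of 0.8% per 1000 cells, was an alternative. Other alternatives changed the rule, the UMI minimum, size factors, the filter, and left out each library, cells with at least 2 UMIs of other lineages, or cells with at least 2 Trdc UMIs, the last chosen after the data were seen. Gamma chain constant genes were matched under the files' symbols (Tcrg-C1 and others), and Mx1 and Folr4 were not matched. On simulated data the genotype test recovered 29.0% of log2 changes of 1 and 85.0% of changes of 2 among 4687 genes, the comparison with other cells 39.0% and 64.0% among 11031, and the interaction 8.5% and 37.5% among 11031. Of the calls made there, 0% to 5.56% were false. The simulated sums took the typical spread of genes at a like level and held no single cells. Recovery for genes whose UMIs lie mostly in 1 cell was therefore not tested. Results for a few genes are not reported here.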

Additional observations from a re-analysis of the deposited data

Results flagged for a closer look

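Over all genes tested, 0.998% were called by the interaction of genotype with membership. The genes below were named for the genotype comparison, most of them for a large difference within PLZF cells, which enters the interaction, so that their number is no measure of how often the genotypes differ by cell group. For 12 of these 21 genes the difference between libraries labelled knockout and wild type was not the same in PLZF cells as in the other kept T cells, by the interaction term in edgeR's quasi-likelihood test. The interaction, as a log2 difference of differences, was -5.13 for Anxa2 (adjusted p = 0.00012), -4.16 for S100a4 (3.7e-09), -3.87 for Trdc (8.2e-06), -3.52 for S100a6 (2.0e-14), -3.50 for Vim (4.2e-17), -2.73 for Lgals1 (1.3e-08), -2.58 for Atxn1 (0.012), -2.52 for Anxa5 (0.028), -2.06 for Maf (1.0e-06), -1.86 for Ifng (0.0021) and -1.23 for Il7r (3.9e-05). It was 3.37 for Egr1 (2.2e-16). Cells with 2 or more Trdc UMIs held 71.8% of the Anxa2 UMIs, 57.9% of the Lgals1 UMIs, 0 of the 220 Egr1 UMIs and 0 of the 262 Ifng UMIs of the PLZF cells. Without these cells Anxa2, Trdc, Atxn1 and Anxa5 were not called, and Atxn1 and Anxa5 were not called without either knockout library or with DESeq2. Ifng rested on the male wild-type library, and its interaction turned to 2.17 without it. That of Il7r turned to 0.10 with at least 2 Zbtb16 UMIs, was -0.014 without the female wild-type library and -0.33 after thinning, and was not called without the male knockout library or with DESeq2 either. Iigp1, an interferon-induced GTPase named here after its values were seen, was lower in the knockout libraries at -0.92 and higher at 2.17 (adjusted p = 0.048, edgeR) without the Trdc cells.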

How the results depend on the processing

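The mean part of a library's Il13 UMIs in PLZF cells was 37.5% after thinning, and 48.3% to 62.0% with one library left out. The number of genes called between genotypes within PLZF cells, 70 in the reported test, was 37 with at least 2 Zbtb16 UMIs required, 13 after thinning, 27 without cells with other-lineage markers, 12 without the Trdc cells, 1 with DESeq2, 21 without the sex term, and 40 to 66 with one library left out (40 without the male knockout, 46 without the male wild-type library). The interaction, with 110 calls, gave 52, 55, 40, 43 and 21 under the first 5 of these settings, and 31 to 308 with one library left out, where leaving out either wild-type library turned the balance from mostly lower to mostly higher. The comparison with other cells gave 2285 to 3528 calls against 3122, the highest being the fit with no replicate block, that is, without library as a term.

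Directions turned for few named genes. Against other cells, Batf went from 0.12 to -0.13 with depth-matched cells and ranged from -0.0096 to 0.33 with one library left out, Il17a was -1.54 after thinning, Trdc was -7.68 without the Trdc cells, by construction, and Iglc1 was 0.059 without other-lineage cells and 1.35 with DESeq2. Between genotypes, Ifng ranged from -1.95 to 1.91 and Tnf from -0.14 to 0.95 with one library left out, and Tnf was -0.62 after thinning. In the interaction, Il13 was -1.42 after thinning, Il7r was 0.10 with at least 2 Zbtb16 UMIs, and Ifng ranged from -3.94 to 2.17. Apart from Trdc, the cause was not tested. Sizes moved more often than calls: against other cells, S1pr1, Il6ra and Actn1 went to -4.05, -3.82 and -4.65 after thinning, Klrb1c to 4.32 with at least 2 Zbtb16 UMIs, and Ifng, Gzmb, Ccl3 and Klrc1 to 6.69, 7.24, 7.47 and 7.48 with depth-matched cells. Of 96 genes named against other cells, 80 kept direction and call in every setting run; of 21 named between genotypes 1 did, and of 21 in the interaction 12 did. Sex pairs 1 library of each genotype, and the reported genotype test has it as a term; the fits with one library left out do not, so the 40 to 66 calls are to be set beside the 21 without the sex term as well as the 70. With 2 libraries a group and 20 to 89 cells in each, single cells can carry most of a gene's UMIs in a library.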
